A study of Mus musculus with 6 samples.

Results

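The E2F, retinoblastoma and mitotic transcription factor genes examined here are 10 of the 31017 genes in a table of read counts: the E2F genes E2f1, E2f2, E2f3, E2f4, E2f7 and E2f8, the pocket protein genes Rb1 and Rbl1, and Mybl2 and Foxm1. They were chosen by gene symbol, with earlier results of these data known. All 10 passed the filter on low counts that left 14268 genes for testing. The counts came from RNA sequencing of mouse Th17 cells, helper T cells that secrete interleukin 17, differentiated in culture. The control libraries carry the genotype label WT, and the KO libraries come from cells deficient in RTF1, a factor that travels with RNA polymerase II and promotes ubiquitination of histone H2B. Each group had 3 libraries. Strain, age, the way Rtf1 was deleted, the activation and cytokine treatment and the time in culture are not given in the sources used here, and the labels do not say whether the libraries of a group came from separate animals or cultures. The p-values therefore measure the spread between these libraries, which may in part be technical. The comparison asked how the loss of RTF1 changed the transcripts of this cell cycle control system.

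E2F proteins bind the promoters of genes needed for DNA synthesis. E2F1, E2F2 and E2F3 activate these genes, E2F4 acts mainly as a repressor that pocket proteins carry to the promoter, and the atypical E2F7 and E2F8 repress without pocket proteins. The pocket proteins, RB (from Rb1), p107 (from Rbl1) and p130 (from Rbl2), hold E2Fs inactive until cyclin-dependent kinases phosphorylate them. B-MYB (from Mybl2) joins the MuvB complex and FOXM1 follows it onto the promoters of mitotic genes, many of which carry a promoter element called CHR. In T cells this system is engaged when activation drives naive cells into rapid division.

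Total counts per library ranged from 16489813 to 51271226. Rtf1 itself was at 91.2 ± 2.84 CPM (counts scaled to a common library total; SD, n = 3) in control and at 33.9 ± 10.03 CPM in KO. Its log2 fold change was −1.42 (SE 0.191, adjusted p = 0.000755 by edgeR's quasi-likelihood test, which is used throughout), so 37.2% of the control level remained. Over 4 Y-linked genes, control replicate 3 had 11376 counts and KO replicate 3 had 5147, against 1 to 3 in each of the remaining libraries. Xist, expressed from the inactive X chromosome of female cells, had 5 and 1 counts in these replicates and 14668 to 28176 in the remaining libraries. Replicate 3 of each group thus held male cells and replicates 1 and 2 female cells, so that each group drew on at least 2 animals. The fold changes and calls of the genes and lists below were also computed from replicates 1 and 2 alone. A fit that leaves out replicate 3 of a single group keeps male cells in the other group only. Sex is then not balanced between the groups. All 5 T cell markers (Cd3d, Cd3e, Cd3g, Cd247 and Cd4) were present in both groups. Their summed levels were 1024 to 1306 CPM in control and 947 to 1191 CPM in KO. Cd4 (log2 fold change −0.94) and Cd247 (−0.41) were called lower, Cd3e (0.71) and Cd3g (0.72) higher, and Cd3d (−0.46) was not called. The Th17 markers Il17a, Il17f, Il23r and Ccr6 were present in both groups and called lower in KO, with log2 fold changes of −1.65, −1.28, −1.35 and −1.15. Of 5 myeloid markers, Cd68 and Csf1r were called higher in KO. The summed level of these 5 markers was 2.08 to 5.04 CPM in control and 16.4 to 27.3 CPM in KO, mostly Cd68, and Itgam had at most 3 counts in any library. Lyz2 had 0, 2 and 4 counts in control and 46, 11 and 8 in KO. Adgre1 had 2, 1 and 0 counts in control and 0, 5 and 0 in KO. Itgam, Lyz2 and Adgre1 were too low to be tested. Marker lists of B cells, of CD8 and NK cells, of erythroid cells and of fibroblasts summed to at most 3.09, 11.8, 3.34 and 0.797 CPM in any library. Among these, Eomes of the CD8 and NK list was called higher in KO (log2 fold change 3.78, from a mean of 0.0991 to 1.55 CPM) and Cd79b of the B cell list lower (−1.96). The part of these other cell types in the results below was not tested.

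All 10 genes had lower estimates in KO, and 7 of them fell: E2f1, E2f2, E2f8, Rb1, Rbl1, Mybl2 and Foxm1. None rose. Of all tested genes, 22.9% were called lower and 23.2% higher (46.1% in all) at an adjusted p under 0.05, with a median log2 fold change of 0.013, whereas the median of the 10 genes was −0.91. Every KO library lay below every control library for 6 of the 10, the called genes other than E2f8, where 28.0% of all tested genes showed this, 29.9% showed the opposite order and 57.9% had groups that did not overlap in either direction. E2f3, E2f4 and E2f7 did not pass the test. When the replicate number was used as a block, E2f3 (log2 fold change −0.33, adjusted p = 0.0487) and E2f7 (−0.74, adjusted p = 0.0109) were called as well, which made 9 of 10. The labels do not say what the replicate numbers stand for, so this block may not reflect a true pairing. With replicates 1 and 2 alone the same 9 were called. In such bulk libraries fewer dividing cells and less of these transcripts per cell cannot be told apart.

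**Figure D1:**
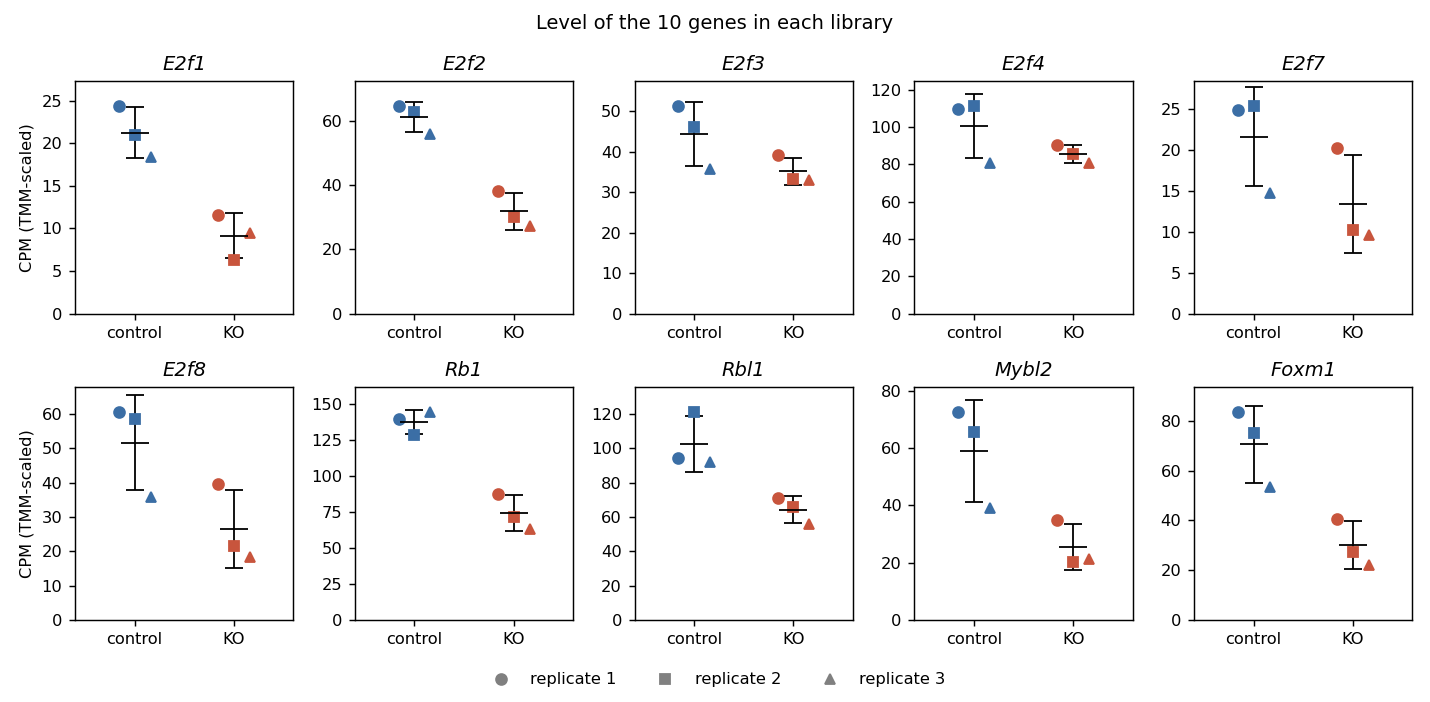
Level of each of the 10 genes in CPM (vertical axes, each starting at 0) in the 3 control and 3 KO libraries. Each point is a library, its shape the replicate number, and the bars give mean and SD. KO points lie below all control points for E2f1, E2f2, Rb1, Rbl1, Mybl2 and Foxm1, and the groups overlap for E2f3, E2f4, E2f7 and E2f8.

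Of the activating E2F genes, E2f1 and E2f2 fell, and E2f3 had a smaller estimate that did not pass the test. The difference between them was not tested. E2f1 (chr2:154559407-154569892 in GENCODE, GRCm38, minus strand), the classic inducer of entry into S phase, held 24.4, 20.9 and 18.4 CPM in control replicates 1, 2 and 3 and 11.6, 6.33 and 9.51 CPM in KO replicates 1, 2 and 3. The lowest control library lay well above the highest KO library. The mean went from 21.2 ± 2.99 to 9.14 ± 2.64 CPM (SD, n = 3), which is 43.0% of control, and the log2 fold change was −1.22 (SE 0.232, edgeR adjusted p = 0.0033). E2f2 (chr4:136172394-136196057, plus strand), the activator with the highest level per kilobase of exon in control, held 64.7, 62.9 and 56.1 CPM in control and 38.3, 30.0 and 27.3 CPM in KO. Its groups were also apart, and the log2 fold change was −0.94 (SE 0.150, adjusted p = 0.00157). E2f3 (chr13:29906575-29986063, minus strand) was measured at 51.3, 46.1 and 35.9 CPM in control and 39.1, 33.2 and 33.1 CPM in KO. Control replicate 3 lay inside the KO range, and the difference did not pass the test (log2 fold change −0.34, adjusted p = 0.11, 95% interval −0.69 to 0.021). Without control replicate 3 it was −0.53 (adjusted p = 0.0104).

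E2f4 (chr8:105297663-105305370, plus strand), the repressor partner of p107 and p130, had the smallest estimate of the 10. It held 109, 111 and 80.7 CPM in control and 90.5, 85.8 and 80.9 CPM in KO. All of the KO libraries fell between the lowest and the other two control libraries. The log2 fold change was −0.23 (SE 0.141, edgeR adjusted p = 0.213, 95% interval −0.55 to 0.091). Leaving out control replicate 3 gave −0.42 (adjusted p = 0.0153), in a fit with male cells in KO only. With replicates 1 and 2 alone it was −0.33 and not called (adjusted p = 0.0544).

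The atypical repressors E2f7 and E2f8 had the largest standard errors of the 10 genes. E2f8 (chr7:48866429-48881596, minus strand) held 60.6, 58.6 and 35.8 CPM in control and 39.6, 21.7 and 18.4 CPM in KO. The overlap came from control replicate 3, which was lower than KO replicate 1. Its log2 fold change of −0.96 (SE 0.303) passed the test with an adjusted p of 0.0295 in edgeR, but the call was lost without control replicate 1 (adjusted p = 0.0811), control replicate 2 (0.0921), KO replicate 2 (0.111) or KO replicate 3 (0.0879). Exons of Gm2788 lie antisense to 11.2% of its exonic bases. E2f7 (chr10:110745439-110787384, plus strand) held 24.8, 25.3 and 14.7 CPM in control and 20.2, 10.2 and 9.56 CPM in KO, with the same pair of libraries crossing. The log2 fold change was −0.69 (SE 0.319, adjusted p = 0.105, 95% interval −1.42 to 0.032), and it was −1.13 (adjusted p = 0.0116) without KO replicate 1 and −0.97 (adjusted p = 0.0183) without control replicate 3.

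Both pocket protein genes fell. Rb1 (chr14:73183673-73325822, minus strand), which encodes the retinoblastoma protein, held 140, 128 and 144 CPM in control and 87.7, 71.8 and 63.1 CPM in KO, so its control libraries were close together and far above KO. The log2 fold change was −0.89 (SE 0.138, edgeR adjusted p = 0.00139), leaving 54.0% of the control mean. Exons of Lpar6 and Rcbtb2 lie on the opposite strand over 14.9% of the exonic bases of Rb1, and the strand setting of the counting is not given in the sources used here. These 2 genes were at 9.72 to 13.5 and 12.2 to 17.5 CPM in control. In KO they were at 16.4 to 23.3 and 12.6 to 17.3 CPM. Rbl1 (chr2:157145893-157204534, minus strand), which encodes p107, held 94.5, 121 and 92.0 CPM in control and 71.1, 65.7 and 55.7 CPM in KO. The groups did not overlap, and the log2 fold change was −0.68 (SE 0.146, adjusted p = 0.0058), the smallest among the 7 called genes.

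Mybl2 and Foxm1, the transcription factor genes of the G2 and mitotic program, fell, with estimates close to that of E2f1. Mybl2 (chr2:163054687-163084688, plus strand) held 72.6, 65.5 and 38.9 CPM in control and 34.8, 20.3 and 21.1 CPM in KO. Control replicate 3 and KO replicate 1 came near each other without crossing. The log2 fold change was −1.21 (SE 0.275, edgeR adjusted p = 0.00726). Mybl2 shares 19.3% of its 50-base stretches with transcripts of other genes, mainly Gm3320, so part of its reads may be ambiguous. Foxm1 (chr6:128362967-128376146, plus strand) held 83.5, 74.9 and 53.2 CPM in control and 40.7, 27.2 and 22.1 CPM in KO. This was the lowest fold change of the 10, −1.23 (SE 0.243, adjusted p = 0.00391), and 8.3% of all tested genes had a lower one. The calls of Mybl2, Foxm1, E2f1, E2f2, Rb1 and Rbl1 were kept in each of the 6 fits that left out 1 library.

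**Figure D2:**
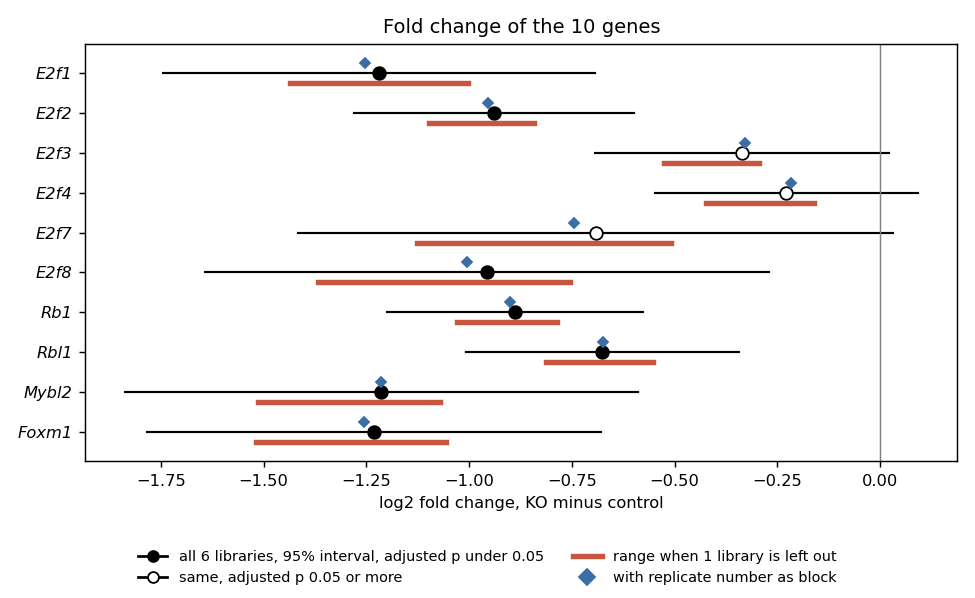
Log2 fold change of KO against control (horizontal axis) for the 10 genes. Circles with lines give the estimate from all 6 libraries with its 95% interval, filled where the adjusted p is under 0.05; red bars span the estimates with 1 library left out, and diamonds use the replicate number as a block. Filled circles lie from −1.23 to −0.68, and the intervals of E2f3, E2f4 and E2f7 reach past 0.

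The promoters of called genes are shown because these genes moved in the same direction. RefSeq (GRCm38.p6) held promoter windows of 300 bases, 250 before and 50 after a start site, for 7 of the 10 genes, with 2 start sites each for E2f2 and E2f3, so 9 windows in all. Windows for E2f4, Rb1 and Foxm1 were not used here. The 250 bases before the start of E2f1 lie inside exons of GENCODE release M21 and are not shown. Capitals mark matches to an E2F consensus, a CHR element or a CCAAT box, and each sequence reads 5′ to 3′ on the strand of its gene and ends at the base before the RefSeq start site.
Rbl1: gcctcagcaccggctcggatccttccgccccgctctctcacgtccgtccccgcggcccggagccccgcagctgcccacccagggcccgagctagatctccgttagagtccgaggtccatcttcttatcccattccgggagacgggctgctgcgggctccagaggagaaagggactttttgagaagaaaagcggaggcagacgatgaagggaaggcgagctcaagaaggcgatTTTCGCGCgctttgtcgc
E2f2: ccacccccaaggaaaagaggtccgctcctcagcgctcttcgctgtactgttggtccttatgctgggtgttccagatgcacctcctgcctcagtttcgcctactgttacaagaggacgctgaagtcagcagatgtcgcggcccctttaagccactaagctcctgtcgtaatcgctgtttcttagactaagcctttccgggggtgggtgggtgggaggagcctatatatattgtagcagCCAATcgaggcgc
E2f8: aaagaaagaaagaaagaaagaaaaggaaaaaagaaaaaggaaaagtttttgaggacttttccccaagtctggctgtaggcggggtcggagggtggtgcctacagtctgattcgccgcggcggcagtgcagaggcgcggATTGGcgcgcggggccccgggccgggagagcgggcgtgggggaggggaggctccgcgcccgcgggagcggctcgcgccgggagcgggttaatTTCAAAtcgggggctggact
Mybl2: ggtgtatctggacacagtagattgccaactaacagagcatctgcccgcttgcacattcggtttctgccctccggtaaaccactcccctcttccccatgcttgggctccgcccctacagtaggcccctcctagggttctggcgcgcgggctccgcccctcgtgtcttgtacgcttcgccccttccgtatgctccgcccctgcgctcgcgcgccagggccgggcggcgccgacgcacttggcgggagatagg
These are chr2:157204535-157204784 (minus strand) for Rbl1, chr4:136172024-136172273 (plus) for the upstream start of E2f2, chr7:48881597-48881846 (minus) for E2f8 and chr2:163054385-163054634 (plus) for Mybl2.

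The E2F consensus was searched on both strands as TTTGGCGC, TTTGCCGC, TTTCGCGC or TTTCCCGC, the CHR element as TTTGAA and the CCAAT box as CCAAT, and no match in the 9 windows overlapped another. In Rbl1 the capitals are TTTCGCGC from −18 to −11, counted from the start site. In E2f2 they are a CCAAT box from −13 to −9, and TTTGGCGC lies at 40 to 47 past the start, outside the stretch shown. The downstream start of E2f2 had a CHR element from −31 to −26 and 3 CCAAT boxes. Its sequence is not shown because 46 of the bases before that start lie in GENCODE exons. In E2f8 the capitals are a CCAAT box on the opposite strand from −112 to −108 and a CHR element on the opposite strand from −20 to −15. Mybl2 held none of these letter strings in its window. Only exact strings were searched, so variant sites were not counted in any window. Of the genes that were not called, E2f7 had an E2F match from −198 to −191 and E2f3 one from −11 to −4 beside a CHR element from −23 to −18. Over the 9 windows an E2F match was found in 4 (44.4%), against 2.26% of all 32851 RefSeq windows, a CHR element in 3 (33.3%, against 17.9%) and a CCAAT box in 5 (55.6%, against 37.4%). Called and uncalled genes of the family both carried such matches.

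Levels can be compared between genes only per length of exon. On that scale, CPM per kilobase of exon, E2f4 was highest in control at 41.0 ± 7.02 (SD, n = 3), followed by Rb1 at 22.9 ± 1.38 and Rbl1 at 17.1 ± 2.69. Then came Mybl2 (12.7 ± 3.83), E2f2 (12.5 ± 0.932), Foxm1 (12.3 ± 2.72), E2f8 (9.49 ± 2.53), E2f3 (8.19 ± 1.45) and E2f1 (6.74 ± 0.949), and E2f7 was lowest at 2.40 ± 0.667. From Rbl1 down to E2f1 no gene differed from the next by more than the SDs of the pair added together. In KO E2f4 stayed highest at 35.0 ± 1.97, with Rb1 at 12.3 ± 2.07 and Rbl1 at 10.7 ± 1.31 now closer than their SDs added together, and E2f3 (6.47 ± 0.635) was level with E2f2 (6.53 ± 1.18). E2f1 at 2.90 ± 0.838 and E2f7 at 1.48 ± 0.661 were the lowest.

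E2f4 and E2f5, the E2Fs that work with p107 and p130, made up a larger share of the E2F transcripts in KO. Of the summed CPM per kilobase of E2f1 to E2f8, E2f4 held 44.2%, 45.9% and 44.0% for control replicates 1, 2 and 3, against 48.4%, 54.8% and 53.9% for the KO replicates in the same order. E2f5 held 7.52% to 8.65% in control and 10.003% to 10.9% in KO. The activators E2f1, E2f2 and E2f3 together made up 28.3% to 32.0% in control and 22.3% to 24.6% in KO. None of these shares overlapped between the groups. Among the activators the shares of E2f1 (7.39% ± 0.593 in control, 4.30% ± 0.999 in KO) and E2f2 (13.8% ± 1.33 and 9.70% ± 0.576) were lower in every KO library, whereas that of E2f3 was higher in each of them (8.92% ± 0.388 and 9.66% ± 0.269; SD, n = 3). The atypical E2f7 and E2f8 together held 12.8% ± 1.58 in control and 9.25% ± 2.82 in KO, with overlapping groups. The summed level was 91.6 ± 14.6 CPM per kilobase in control and 67.1 ± 8.04 in KO. Shares add up to a whole, so a lower share of some genes raises that of others, and no test was made on them.

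**Figure D3:**
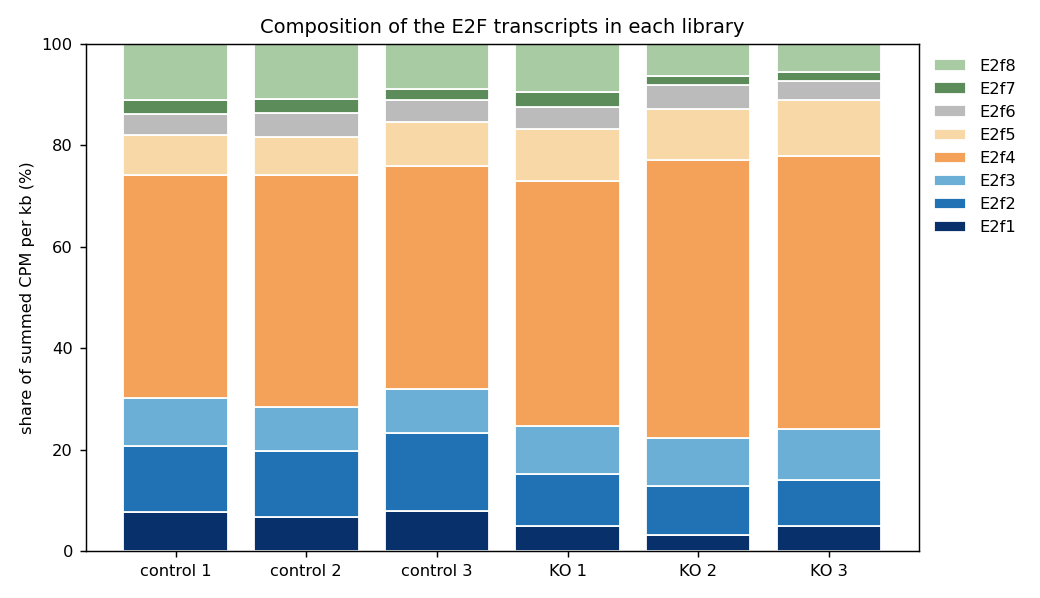
Share of each E2F gene in the summed CPM per kilobase of exon of E2f1 to E2f8 (vertical axis, percent) in each of the 6 libraries. E2f4 takes 44.0% to 45.9% in control and 48.4% to 54.8% in KO, and E2f1 to E2f3 together take less in each KO library than in any control library.

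The libraries of a group were ordered alike for most of the 10 genes. KO replicate 1 was the highest KO library for all 10, and control replicate 3 was the lowest control library for 9, the exception being Rb1, for which it was the highest. KO replicate 3 was the lowest KO library for 8. Rtf1 itself held 94.0, 91.2 and 88.3 CPM in control replicates 1, 2 and 3 and 45.3, 30.4 and 26.2 CPM in KO. Replicate 3 of each group was also the library with male cells. A link of the order of the libraries with the level of Rtf1 or with sex was not tested. On the log2 scale, the difference between libraries of equal replicate number ran from −1.73 for E2f1 in pair 2 to 0.0039 for E2f4 in pair 3, and all of the 10 genes were lower in KO in pairs 1 and 2. Pair 1 gave −1.07 for E2f1, −1.06 for Mybl2 and −1.04 for Foxm1. Pair 2 gave −1.73, −1.69 and −1.46. Pair 3 gave −0.95, −0.88 and −1.27. For Rb1 the pairs gave −0.67, −0.84 and −1.19, so the pair with the largest difference was not the same as for E2f1 and Mybl2.

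**Figure D4:**
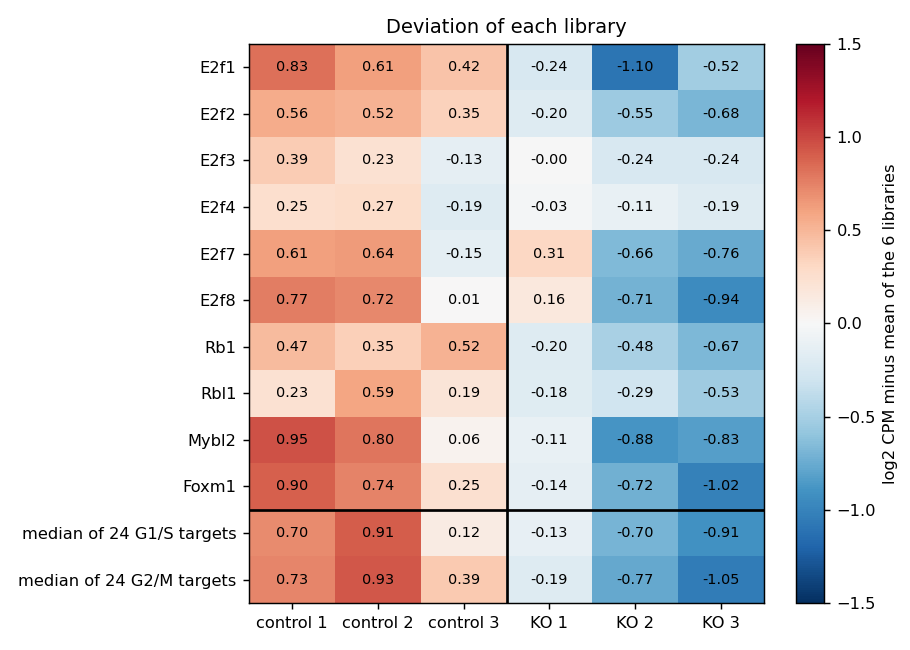
Log2 CPM of each gene minus its mean over the 6 libraries, with the medians of 24 G1/S targets and 24 G2/M targets below (color scale, red above and blue below the mean; the number is printed in each cell). Within its group, control replicate 3 lies nearest to 0 for each gene except Rb1, where it holds 0.52, and KO replicate 1 lies nearest to 0 for all 10.

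Among 10 partner genes of the family, 5 fell and none rose, with a median log2 fold change of −0.61. Over all tested genes, 22.9% were called lower and 23.2% higher. The dimerization partners that E2Fs need to bind DNA were both lower. Tfdp2 was at 46.7 ± 5.41 CPM in control and 16.4 ± 1.35 CPM in KO (SD, n = 3), with an estimate of −1.52 (edgeR adjusted p = 0.00019). Tfdp1 was at 238 ± 48.1 and 129 ± 24.7 CPM (−0.88, adjusted p = 0.00532), though it shares 16.8% of its 50-base stretches with other transcripts, mainly Gm7390. Some subunits of MuvB, the complex that B-MYB joins, fell as well, namely Lin54 (−0.81, adjusted p = 0.000819), Lin9 (−0.76, adjusted p = 0.00853) and Lin52 (−0.75, adjusted p = 0.00741). Lin37, another MuvB subunit, was at 15.9 ± 2.25 and 18.6 ± 1.23 CPM (0.23, adjusted p = 0.254), and Rbbp4, a histone-binding subunit, had a log2 fold change of −0.39 (adjusted p = 0.0619, and 0.0148 with the replicate block) and antisense exons over 18.1% of its exonic bases.

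Rbl2, which encodes p130, the pocket protein of resting cells, had a positive estimate, unlike Rb1 and Rbl1. It held 64.0, 66.5 and 99.4 CPM in control and 90.2, 101 and 105 CPM in KO. Control replicate 3 lay among the KO libraries. The log2 fold change of 0.36 did not pass the test (edgeR adjusted p = 0.117), passed it with the replicate block (0.39, adjusted p = 0.0243), and was 0.54 without control replicate 3 (adjusted p = 0.00655). Of the exonic bases of Rbl2, 21.0% overlap antisense exons, of Aktip and Gm45464. The remaining E2F genes were not called. E2f5 was at 12.9 ± 1.24 and 12.4 ± 1.27 CPM (−0.061, adjusted p = 0.779, positive at 0.026 when scaled by library size only), and E2f6 at 23.0 ± 3.82 and 16.5 ± 2.84 CPM (−0.47, adjusted p = 0.0647, and 0.0149 with the replicate block).

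Upstream of the pocket proteins, 11 of 13 genes for D-type cyclins, the kinases CDK4, CDK6 and CDK2 and kinase inhibitors could be tested. Of these 11, 4 fell (36.4%) and 3 rose, beside 22.9% lower and 23.2% higher among all tested genes, so the counts set this list little apart from the rest of the genes. Ccnd2, the most abundant D-type cyclin gene here by CPM, was at 835 ± 91.5 CPM in control and rose to 1466 ± 229 CPM in KO (SD, n = 3), with an estimate of 0.81 (edgeR adjusted p = 0.00337). Ccnd1 rose from 0.676 ± 0.247 to 4.42 ± 0.336 CPM (2.70, adjusted p = 0.000679) and stayed low, with 23.4% of its exonic bases overlapping an antisense gene. Ccnd3 was at 248 ± 16.7 and 268 ± 32.2 CPM (0.11, adjusted p = 0.506, and −0.014 without control replicate 1). The kinase genes Cdk4 (−0.79, adjusted p = 0.0034), Cdk6 (−0.63, adjusted p = 0.0143) and Cdk2 (−0.56, adjusted p = 0.0172) fell. Of the exonic bases of Cdk4, 19.7% overlap antisense Tspan31. The call of Cdk6 was lost without KO replicate 2 (adjusted p = 0.0716), and that of Cdk2 in 4 of the 6 leave-one-out fits (adjusted p = 0.056 to 0.0703).

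The inhibitor genes differed among themselves. Cdkn1a, which encodes p21 and restrains CDK2, was at 304 ± 13.0 CPM in control and rose to 421 ± 49.3 CPM in KO (SD, n = 3). The estimate was 0.47 (edgeR adjusted p = 0.0146), a call lost with replicates 1 and 2 alone (0.33, adjusted p = 0.082) and without control replicate 1, control replicate 3 or KO replicate 3 (adjusted p = 0.064 to 0.0838). Cdkn2c, which encodes the CDK4 and CDK6 inhibitor p18, fell from 11.8 ± 2.90 to 7.05 ± 1.003 CPM (−0.75, adjusted p = 0.0245), a call lost without control replicate 2, KO replicate 2 or KO replicate 3 (adjusted p = 0.0748 to 0.0928). Cdkn1b, for p27, did not pass the test (−0.35, adjusted p = 0.0948), but did with the replicate block (−0.34, adjusted p = 0.0469). Cdkn2d (−0.25, adjusted p = 0.0964) was not called, and Cdkn1c was under 1 CPM in each library (adjusted p = 0.596). Cdkn2a and Cdkn2b had at most 4 counts in any library and were not tested.

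Genes that E2Fs and the B-MYB and FOXM1 complexes are known to activate were lower together with them. Of 24 G1/S genes regarded as E2F targets, 23 fell and none rose, with a median log2 fold change of −1.13. The same test called 22.9% of all tested genes lower and 23.2% higher. The gene lists were chosen with earlier results of these data known, so their counts only describe them. At the low end were Pola1 (−1.49, edgeR adjusted p = 0.00307), the catalytic subunit of DNA polymerase alpha, Tk1 (−1.32, adjusted p = 0.00177), thymidine kinase, and Cdt1 (−1.31, adjusted p = 0.00142), a licensing factor of replication origins. At the other end were Ezh2 (−0.57, adjusted p = 0.00547), Pcna (−0.65, adjusted p = 0.0468) and Slbp (−0.24, adjusted p = 0.267), the histone mRNA binding protein gene, which alone was not called, except without control replicate 3 (adjusted p = 0.0232). The call of Pcna was lost when scaled by library size only (adjusted p = 0.0714), with limma-voom (0.0591) and in 5 of the 6 leave-one-out fits, and Pcna shares 19.1% of its 50-base stretches with other transcripts, mainly Pcna-ps2. Left out 1 at a time, the libraries gave 17 to 24 calls.

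All of the 24 G2/M genes fell, with a median log2 fold change of −1.32 and a range from −1.82 to −0.83. The share called lower among all tested genes was 22.9%. Cdc25b, a phosphatase that activates CDK1, was at 66.2 ± 2.74 CPM in control and 18.8 ± 3.15 CPM in KO (SD, n = 3; −1.82, edgeR adjusted p = 0.000114). Bub1 (−1.67, adjusted p = 0.00168), a kinase of the spindle checkpoint, and Aurkb (−1.66, adjusted p = 0.000584), the kinase of the chromosomal passenger complex, came next. The smallest decreases were those of Kif20a (−0.83, adjusted p = 0.0209), a kinesin of cytokinesis, Cdc20 (−0.98, adjusted p = 0.0127), an activator of the anaphase-promoting complex, and Ccnf (−1.09, adjusted p = 0.00953). The call of Kif20a was lost without control replicate 2, KO replicate 2 or KO replicate 3 (adjusted p = 0.0661 to 0.0764) and that of Cdc20 without KO replicate 2 (0.0539), and 29.3% of the exonic bases of Kif20a overlap antisense Cdc23. Left out 1 at a time, the libraries gave 21 to 24 calls in this list. An E2F match was found in 10 of 23 promoter windows of the G1/S genes (43.5%) and in 1 of 20 windows of the G2/M genes (5.0%). A CHR element was found in 1 of 23 (4.35%) and in 14 of 20 (70.0%), against the shares over all windows given above. A match describes the letters in the window and says nothing of binding.

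**Figure D5:**
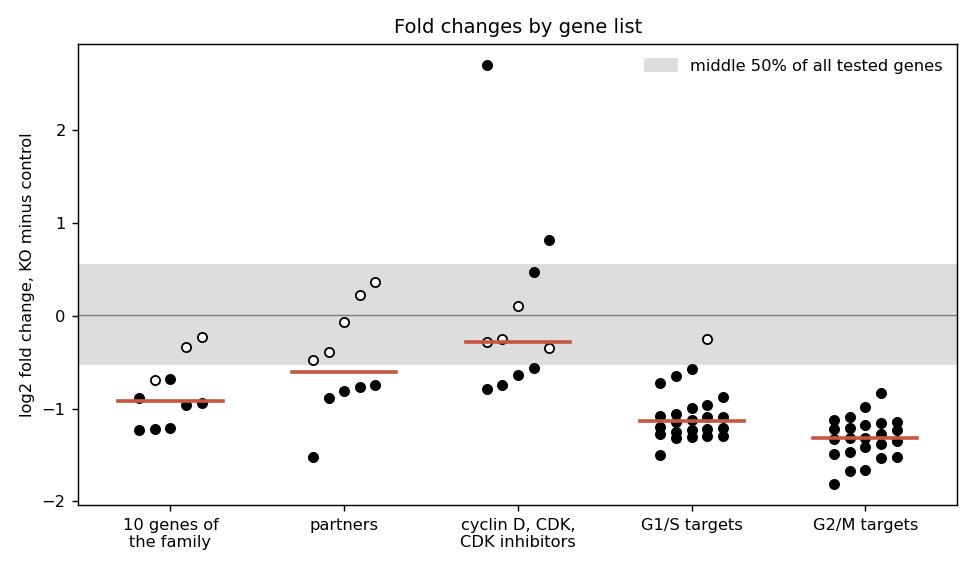
Log2 fold change of KO against control (vertical axis) for the genes of 5 lists. Each point is a gene, filled where the adjusted p is under 0.05, the red line is the median of the list, and the grey band holds the middle 50% of all tested genes. Medians lie at −0.91 for the 10 genes, −0.61 for their partners, −0.28 for the D-type cyclins, kinases and inhibitors, −1.13 for the G1/S and −1.32 for the G2/M targets.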

How the data were processed

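RNA of 3 control and 3 RTF1-deficient Th17 samples was sequenced, per the labels' protocols after extraction with a column kit. The deposited values were whole-number counts per gene symbol. STAR, featureCounts, DESeq2 and the build mm10 are named in the submitters' processing notes, and versions, annotation and strand setting are not given in the sources used here. No column lacked a sample and no line lacked a name (0 of each). The authors' counts were tested with edgeR 4.0.16 (R 4.3.3) by the quasi-likelihood test, with TMM factors, filterByExpr by group and Benjamini-Hochberg adjustment over 14268 genes, which held 99.94% of all counts. CPM used the same factors, the SE is the absolute log2 fold change over the square root of F, and the 95% intervals use the test's degrees of freedom. The biological coefficient of variation was 0.212. The code was tested on simulated data with 200 changed genes. Far more genes were called in the real data, and the simulated libraries shared no differences in sex. The simulation therefore does not check the scaling or the error rate in this setting.

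The members and gene lists were chosen with earlier results of these data known. The named genes are the 10 members, their partners and regulators, and the 3 lowest and 3 highest of each target list at a mean of at least 5 CPM. Groups and replicate numbers came from the titles. Libraries of equal number correlated in their deviations from the group mean (r across genes 0.27, 0.13 and 0.38), so these numbers were taken to pair libraries, although their meaning is not given in the labels. Control replicate 2 correlated more with KO replicate 1 (0.204). The replicate number also carries sex, as replicate 3 of each group held male cells. The correlations therefore do not show that replicates 1 and 2 pair by number. Alternatives were other scaling (upper-quartile factors, DESeq2 size factors, library size), other filters, DESeq2 1.42.0, limma-voom (limma 3.58.1), the replicate block, leaving out each library, and replicates 1 and 2 alone. Exon lengths, overlaps and shared 50-base stretches came from GENCODE release M21 (GRCm38, the build called mm10), and promoters from RefSeq. No molecular identifiers are named, so depth describes counting error only. The Th17 markers are reported in part, and the rest of that list is not reported here.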

Additional observations from a re-analysis of the deposited data

How the results depend on the processing

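All of the 10 genes kept their direction under each alternative. Left out 1 at a time, the libraries gave log2 fold changes of −1.44 to −1.003 for E2f1, −1.10 to −0.84 for E2f2, −0.53 to −0.29 for E2f3, −0.42 to −0.16 for E2f4, −1.13 to −0.51 for E2f7 and −1.37 to −0.76 for E2f8. The ranges were −1.03 to −0.79 for Rb1, −0.81 to −0.55 for Rbl1, −1.51 to −1.07 for Mybl2 and −1.52 to −1.06 for Foxm1. The number of the 10 called lower was then 6 to 10, and 7 under each change of scaling, filter or test.

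With the replicate number as a block, E2f3 (−0.33) and E2f7 (−0.74) were called, and 1 partner gene, Rbl2, was called higher. That replicates 1 and 2 pair by number was not shown, as described above. With replicates 1 and 2 alone, E2f3 (−0.43), E2f7 (−0.73) and again 1 partner gene upward were called. Upper-quartile factors and replicates 1 and 2 alone called E2f6 and Rbbp4. The block also called E2f6, Rbbp4 and Cdkn1b, and changed no other call among the genes named. Leaving out 1 library, the partners had 0 to 1 higher calls and medians of −0.75 to −0.51, and the cyclin D, kinase and inhibitor genes had 1 to 4 lower calls and medians of −0.46 to −0.22. Without KO replicate 2, 1 of the latter was called lower, and 2 without control replicate 2 or KO replicate 3. Over all genes 2170 to 3700 were called lower, fewest without KO replicate 2. The direction turned for E2f5 with library size only (0.026) and for Ccnd3 without control replicate 1 (−0.014; range over such fits −0.014 to 0.186), and neither was called. The cause of these changes was not tested.

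With the longest transcript as the length, the shares in E2F transcripts were, in control and KO, 11.6% and 8.17% for E2f2, 7.74% and 8.42% for E2f3, 6.50% and 8.49% for E2f5, 6.77% and 6.68% for E2f6 and 3.46% and 2.89% for E2f7. E2f8 took 12.3% in control. E2f4 stayed at 44.8% and 52.8%.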
